A study of Mus musculus with 4 samples.

Results

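Cytochromes P450 of the families Cyp2 and Cyp3 carry out a large share of the oxidation of drugs, steroids and fatty acids in the liver. Their transcripts were counted here in hepatocytes of 4 mouse livers, 1 each of wild type (WT), a Yap knock-out (YAPKO), a Taz knock-out (TAZKO) and the double knock-out (DKO).

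The members are the genes whose symbol is Cyp2 or Cyp3 followed by a letter and a number, without Cyp2e1 and Cyp2f2, with at least 20 UMIs summed over the 4 matrices. This rule chose 35 of 55488 genes, 31 of family Cyp2 and 4 of family Cyp3. Of 53 symbols with such names, 18 had fewer UMIs, 9 of them with 0. Just outside were Cyp2c39 with 15 UMIs and Cyp2d34 with 10, and just inside were Cyp2c40 with 22 and Cyp2a22 with 41.

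In the study, Alb-Cre mice were crossed with Yap fl/fl and Taz fl/fl mice, so that Yap1, Wwtr1 (the gene of TAZ) or both were deleted in hepatocytes and biliary epithelial cells (BECs). Hepatocytes and non-parenchymal cells were isolated separately, mixed, and sequenced with 10x 3′ v3.1 chemistry, 1 mouse and 1 library per genotype, without treatment. The WT mouse is labelled only as wildtype, and the sources used here do not give the sex and age of the 4 mice. Because Cre acts from the albumin promoter, other cell types keep both genes, and the deletion is present long before the cells are taken, so early and late changes cannot be told apart. All 3 comparisons use the same WT library.

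P450 enzymes are heme proteins of the endoplasmic reticulum that receive electrons from the reductase made from Por. Many Cyp2 and Cyp3 genes are transcribed mainly in hepatocytes around the central vein, and several respond to foreign compounds through the receptors CAR (gene Nr1i3) and PXR (gene Nr1i2). A further group differs between male and female liver, under the control of growth hormone through STAT5 and BCL6. Most of the genes lie near close paralogs, so reads of some members can also match their neighbors.

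The targeted genes were looked at first. In hepatocytes, Yap1 was at 21.2 CPM in WT, 4.55 in YAPKO, 46.3 in TAZKO and 4.67 in DKO, where CPM is UMIs per 1000000 UMIs of the hepatocytes of a library. Its log2 ratio to WT was -2.22 in YAPKO, 1.13 in TAZKO and -2.18 in DKO, so it was low in both libraries with the Yap deletion. Centred on the median of all genes, given below, the ratio was -2.61 in YAPKO, 0.48 in TAZKO, where this ends the call, and -2.64 in DKO. Wwtr1 was at 5.58 CPM in WT, 13.5 in YAPKO, 3.34 in TAZKO and 2.89 in DKO, with log2 ratios of 1.28 in YAPKO, -0.74 in TAZKO and -0.95 in DKO. Centred it was 0.88 in YAPKO, which ends that call, and past 2-fold lower in TAZKO (-1.39) and DKO (-1.41). The reads come from the 3′ ends of transcripts, and tags outside the deleted part of a gene check nothing about the deletion, so these values do not measure its efficiency.

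Hepatocytes were cells with 500 to 6000 genes, at most 10% mitochondrial UMIs and at least 3% of UMIs from Alb, Apoa1, Ttr and Apoc3. They numbered 2254 in WT, 1159 in YAPKO, 3112 in TAZKO and 2925 in DKO, which is 31.5% in WT, 18.5% in YAPKO, 36.0% in TAZKO and 35.3% in DKO of the cells kept. The matrices held 13657 barcodes in WT, 7711 in YAPKO, 14418 in TAZKO and 9188 in DKO, with 66259687 UMIs in WT, 85989454 in YAPKO, 49022089 in TAZKO and 77411746 in DKO, and the hepatocytes alone held 19180146 UMIs in WT, 16905756 in YAPKO, 14371818 in TAZKO and 31451371 in DKO. Depth differed between libraries, with a median per hepatocyte of 2166.5 UMIs in WT, 6457 in YAPKO, 1854.5 in TAZKO and 6475 in DKO and 721.5 genes in WT, 1771 in YAPKO, 848 in TAZKO and 1843 in DKO. The deepest 10% of hepatocytes held 60.3% in WT, 32.9% in YAPKO, 55.0% in TAZKO and 33.1% in DKO of the UMIs. Barcodes found in 2 libraries numbered between 10 and 67 per pair, and at most 5 of them were hepatocytes in both. All 7 check markers outside the rule were found in each library, summed to 16573 CPM in WT, 13355 in YAPKO, 9901 in TAZKO and 8653 in DKO.

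Markers of other cell types were also present in the hepatocytes, and their part in the results was not tested. The markers of neutrophils, 4 of 4 in each library and led by S100a9, summed to 234 CPM in WT, 161 in YAPKO, 44.1 in TAZKO and 41.3 in DKO. Those of Kupffer cells (KCs), 6 of 6 and led by C1qb, Clec4f or Cd5l, came to 128 CPM in WT, 113 in YAPKO, 162 in TAZKO and 118 in DKO. The sum for endothelial cells (ECs), 7 of 7 and led by Clec4g or Ehd3, was 113 CPM in WT, 98.8 in YAPKO, 239 in TAZKO and 100.3 in DKO. For BECs the sum was 51.3 CPM in WT, 239.7 in YAPKO, 52.3 in TAZKO and 30.0 in DKO, with 5 of 5 markers in WT and YAPKO and 4 of 5 in the other libraries, where Krt7 was at 0 in TAZKO and Krt19 at 0 in DKO. Spp1 led this list except in TAZKO, where Sox9 did. Markers of other macrophages, 4 of 4 and led by Lyz2, reached 32.3 CPM in WT, 42.4 in YAPKO, 35.3 in TAZKO and 26.0 in DKO, and those of stellate cells (HSCs), 5 of 5 and led by Dcn, 16.6 CPM in WT, 9.64 in YAPKO, 25.5 in TAZKO and 22.4 in DKO.

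B cell markers, 5 of 5 and led by Cd79a, summed to 13.6 CPM in WT, 13.3 in YAPKO, 44.7 in TAZKO and 11.9 in DKO. T cell markers, 4 of 4 and led by Cd3g in WT and Trbc2 elsewhere, gave 10.2 CPM in WT, 4.67 in YAPKO, 33.3 in TAZKO and 18.3 in DKO, and NK cell markers, 4 of 4 and led by Nkg7, 9.07 CPM in WT, 1.36 in YAPKO, 19.2 in TAZKO and 7.47 in DKO. Markers of dendritic cells, led by Siglech, gave 0.574 CPM in WT, 1.30 in YAPKO, 10.1 in TAZKO and 5.34 in DKO, with 3 of 4 in WT, where Xcr1 was at 0, and 4 of 4 elsewhere. The 2 markers of dividing cells, led by Top2a, were at 0.782 CPM in WT, 3.14 in YAPKO, 1.18 in TAZKO and 1.11 in DKO.

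With 1 library per genotype no test was made. A member is called here where its CPM differs from WT at least 2-fold, with at least 20 UMIs in the pair of libraries. Intervals are exact 95% intervals that cover counting error only, and there is no replicate against which to check them. Counts of 3′ UMIs are not scaled by transcript length, and capture can differ between genes, so an order of genes by level is an order of UMIs only.

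In YAPKO, 7 of 30 members compared were higher, or 23.3%, against 8.53% of all genes compared, and 0 were lower, against 1.52%. In TAZKO, 12 of 29 members were higher (41.4%), against 27.4% of all genes, and 1 was lower, against 1.92%. In DKO, 12 of 32 members were higher (37.5%), against 16.1% of all genes, and 3 were lower, against 2.73%. Some members called higher reached 20 UMIs in the pair only through the knock-out, so they could only be called higher. They were Cyp2a4 (1 UMI in WT) and Cyp2c38 (3) in YAPKO and Cyp2c38 in TAZKO. In DKO they were Cyp2a4, Cyp2c38, Cyp2b9 (0 UMIs in WT) and Cyp2g1 (0). The counts of higher members thus rest partly on this minimum, which applies to all genes as well.

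The median log2 ratio of all genes was itself above 0, at 0.39 in YAPKO, 0.65 in TAZKO and 0.46 in DKO. The median of the members was 0.30 in YAPKO, 0.58 in TAZKO and 0.43 in DKO, each below that of all genes. Relative to the median of all genes, 5 members were higher and 0 lower in YAPKO, where 3.52% and 3.36% of all genes passed the same limits. In TAZKO 11 members were higher and 3 lower on this scale, beside 7.51% and 7.43% of all genes. In DKO 10 were higher and 7 lower, beside 7.44% and 5.8%. The members lower on this scale were Cyp2d11, Cyp2d9 and Cyp2d40 in TAZKO, joined in DKO by Cyp2a12, Cyp2d10, Cyp2d26 and Cyp2c70. The figure of levels shows the abundant members in each library, and the figure of ratios shows with filled points which members were called.

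**Figure D1:**
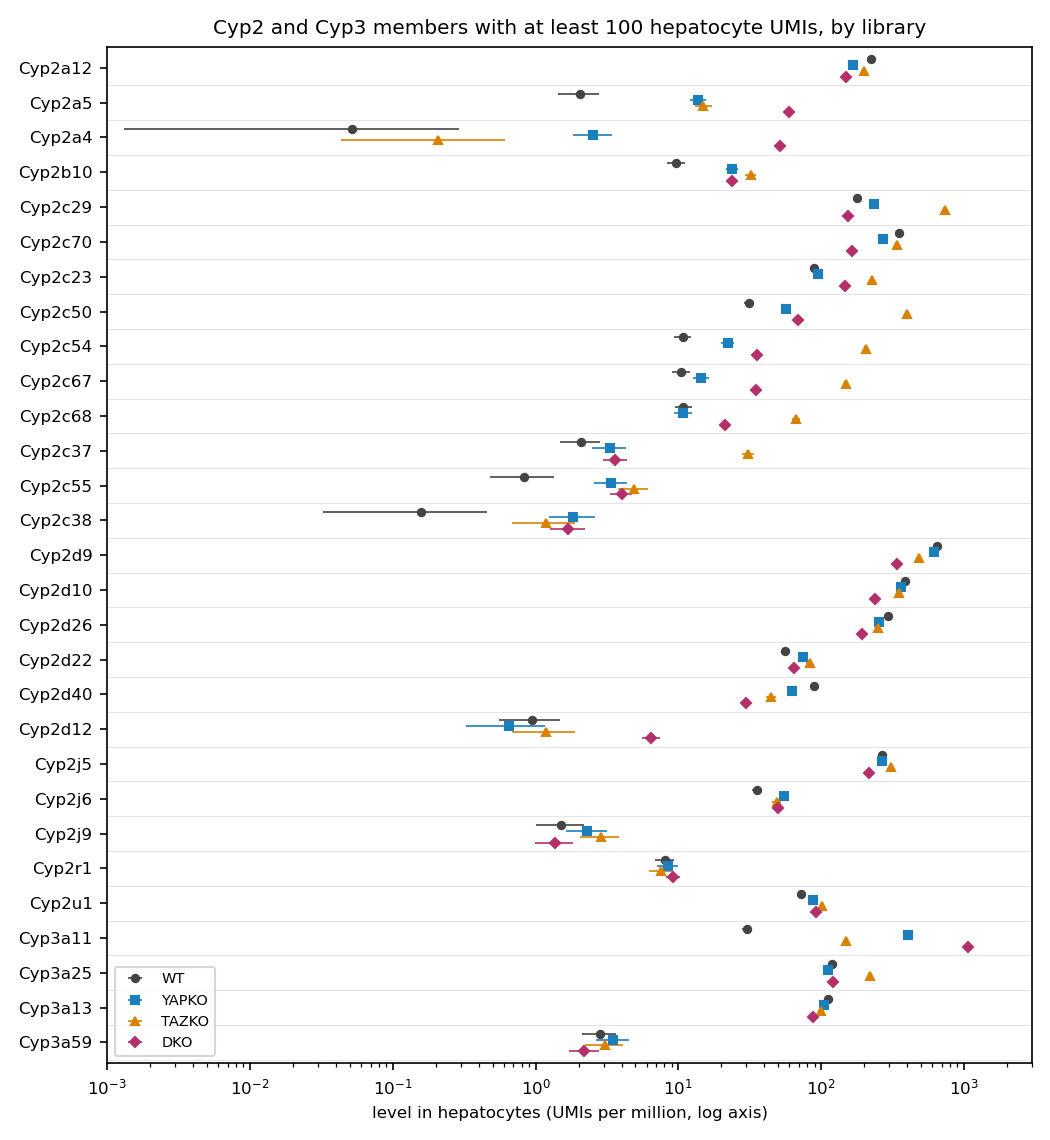
Level of the 29 members with at least 100 UMIs in hepatocytes, as CPM on a log axis, with 1 color per library and bars for exact 95% Poisson intervals. Points with 0 UMIs are not drawn.

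**Figure D2:**
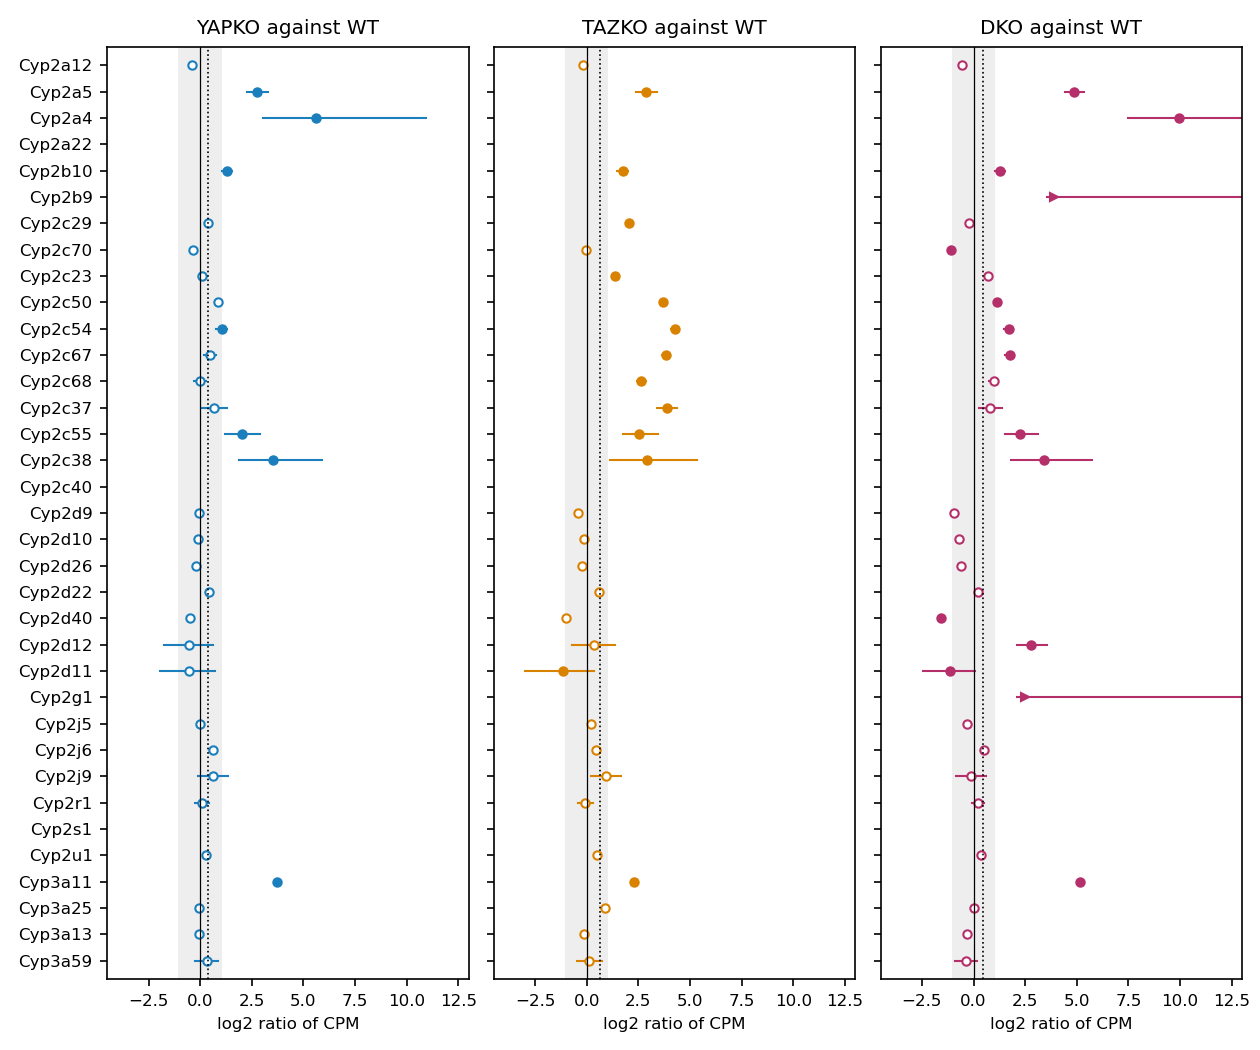
Log2 ratio to WT of each member in hepatocytes of YAPKO, TAZKO and DKO, with exact 95% intervals, a grey band for less than 2-fold, a dotted line at the median of all genes, and filled points past 2-fold; members between 0 and the dotted line turn to lower when centred on that median. Triangles are lower bounds where WT had 0 UMIs. Lines reaching the right edge run past it, without an upper bound for the triangles and to 15.26 for Cyp2a4 in DKO. Members without a point had fewer than 20 UMIs in the pair.

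Together the members made up 0.304% of hepatocyte UMIs in WT, 0.334% in YAPKO, 0.456% in TAZKO and 0.344% in DKO. The summed log2 ratio was 0.13 in YAPKO, 0.58 in TAZKO and 0.18 in DKO, and it turned negative in all 3 when centred on the median of all genes (-0.26 in YAPKO, -0.067 in TAZKO and -0.28 in DKO). The composition differed between libraries. The member with the most UMIs was Cyp2d9 in WT and YAPKO, with 21.3% and 18.6% of member UMIs, Cyp2c29 in TAZKO with 16.1%, and Cyp3a11 in DKO with 31.1%. The Cyp2d genes held 48.6% in WT, 41.2% in YAPKO, 26.5% in TAZKO and 25.2% in DKO, so their share was largest in WT and smallest in DKO. The Cyp2c genes held 22.4% in WT, 21.3% in YAPKO, 47.4% in TAZKO and 18.5% in DKO, with the largest share in TAZKO. The Cyp3a genes held 8.63% in WT, 18.7% in YAPKO, 10.4% in TAZKO and 37.2% in DKO, with the largest share in DKO.

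Cyp3a11 is the main mouse counterpart of human CYP3A4, an oxidase of many drugs and steroids and a known target of PXR. Its levels with 95% intervals were 30.3 CPM (27.9 to 32.9) in WT, 403 (393 to 413) in YAPKO, 150.2 (144 to 157) in TAZKO and 1069.9 (1058 to 1081) in DKO. It was lowest in WT and higher in each knock-out, most in DKO. The log2 ratio was 3.73 (3.61 to 3.86) in YAPKO, 2.31 (2.17 to 2.44) in TAZKO and 5.14 (5.02 to 5.26) in DKO, or 13.3-fold, 4.95-fold and 35.3-fold. Relative to the median of all genes the ratios were 3.34, 1.66 and 4.68, in the same order. All settings except those of position on the lobule axis, described below, kept the call, but the size moved. With 10% of marker UMIs required, which leaves 233 cells in WT, 73 in YAPKO, 103 in TAZKO and 119 in DKO, the ratio was 8.01 in YAPKO, 4.07 in TAZKO and 9.83 in DKO. With the limits of 500 to 6000 read as UMIs it was 2.82, 3.05 and 3.82. As a mean over cells it was 2.999 in TAZKO and 4.42 in DKO. In cells with at least 5000 UMIs it fell to 1.46 in TAZKO, and without an upper limit on genes to 3.14 in YAPKO and 4.54 in DKO.

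The Cyp3a11 gene lies at chr5:145854426-145879964, reverse strand. The start used for its promoter is that of RefSeq and differs from the start of this interval, which is from GENCODE. Its promoter, from 250 bases before the start to 50 after, is shown because the gene was higher in all 3 knock-outs (RefSeq, GRCm38.p6, chr5:145879805-145880104, reverse strand), with matches to the searched letters in capitals.
Cyp3a11: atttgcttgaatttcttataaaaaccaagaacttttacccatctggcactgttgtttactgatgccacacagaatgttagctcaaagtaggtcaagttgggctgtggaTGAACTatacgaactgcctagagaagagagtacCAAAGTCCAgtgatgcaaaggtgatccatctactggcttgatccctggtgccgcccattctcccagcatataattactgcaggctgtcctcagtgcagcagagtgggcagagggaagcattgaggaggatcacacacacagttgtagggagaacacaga
The capitals mark CAAAGTCCA, the HNF4A letters (reverse strand TGGACTTTG), and TGAACT, the reverse strand of AGTTCA, which is part of the sites bound by PXR and CAR. The matches do not overlap. CAAAGTCCA is present on either strand in 0.496% of 27025 promoters and AGTTCA in 14.05%. A match describes the letters and was not tested for binding.

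The other Cyp3a genes moved less. Cyp3a25, a further Cyp3a enzyme of adult liver, was at 118 CPM in WT, 113 in YAPKO, 220.1 in TAZKO and 120.3 in DKO, highest in TAZKO. Its log2 ratio was -0.074 in YAPKO, 0.89 in TAZKO and 0.023 in DKO, and in DKO it turned to -0.44 centred on the median and to -0.12 when scaled without hepatocyte marker, Mup and mitochondrial genes. In TAZKO the value of 0.89 passed 2-fold with the limits read as UMIs (1.28) and as a mean over cells (1.07), and was 0.24 centred on the median. Cyp3a13, which is also made in the intestine, was at 111 CPM in WT, 105 in YAPKO, 99.99 in TAZKO and 88.2 in DKO, with little difference between libraries and a log2 ratio of -0.077 in YAPKO, -0.15 in TAZKO and -0.33 in DKO. Cyp3a59 was low in all libraries, with 54 UMIs in WT, 59 in YAPKO, 44 in TAZKO and 69 in DKO. Its ratio was 0.31 in YAPKO and 0.12 in TAZKO, both turning negative when centred (-0.085 and -0.53), and -0.36 in DKO. Members outside the rule for named genes, here Cyp3a13 and Cyp3a59 and below Cyp2a22, Cyp2b9, Cyp2c40, Cyp2d11, Cyp2d22, Cyp2d40, Cyp2g1, Cyp2j6, Cyp2j9, Cyp2r1, Cyp2s1 and Cyp2u1, are described although they were chosen after their values were seen.

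The Cyp2c genes oxidize arachidonic acid and other fatty acids as well as drugs. Summed they were at 683 CPM in WT, 712 in YAPKO, 2165 in TAZKO and 636 in DKO, highest in TAZKO. The log2 ratio was 0.060 in YAPKO, 1.66 in TAZKO and -0.10 in DKO. In YAPKO it turned to -0.33 centred on the median of all genes and to -0.040 when scaled without marker, Mup and mitochondrial genes. Cyp2c29, which had the most UMIs of them in TAZKO only, was at 179 CPM (173 to 185) in WT, 233 (226 to 240.3) in YAPKO, 733 (719 to 747) in TAZKO and 155 (151 to 159.6) in DKO. Only TAZKO was high, with a log2 ratio of 2.04 (1.98 to 2.09). In YAPKO the ratio was 0.38, and it turned to -0.011 centred on the median, to -0.15 with limits read as UMIs and to -0.55 without an upper limit. In DKO it was -0.20, and -0.81 without an upper limit. With 10% of marker UMIs required all 3 knock-outs were high, at 4.12 in YAPKO, 3.60 in TAZKO and 4.43 in DKO. The TAZKO value was 2.83 with limits read as UMIs, 1.39 centred, and 2.71 as a mean over cells. It turned to -0.94 in cells with a pericentral share of at least 0.4, a measure of position on the lobule axis defined below. These are the pericentral cells named with other members. Only 36 WT cells fell in that range. Values there with shares from Cyp2e1 and Cyp2f2 alone are given below only for Cyp2c29, Cyp3a11 and Cyp2b10.

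Cyp2c50 and Cyp2c54 were raised most in TAZKO as well. Cyp2c50 was at 31.3 CPM in WT, 56.5 in YAPKO, 401 in TAZKO and 69.3 in DKO, and its log2 ratio was 0.85 in YAPKO, 3.68 (3.56 to 3.80) in TAZKO and 1.15 (1.02 to 1.28) in DKO. In DKO the call ended with limits read as UMIs (0.78), when centred (0.69) and without an upper limit (0.65), and the value was 5.58 with 10% of marker UMIs. In YAPKO it ranged from -0.070 without an upper limit to 2.61 with 10% of marker UMIs, with 1.46 for limits as UMIs and 1.40 as a mean over cells. The TAZKO value was 5.92 with 10% of marker UMIs, 4.37 for limits as UMIs, 4.32 as a mean over cells and 3.03 centred. In pericentral cells no call remained, at 0.48 in TAZKO and -0.40 in DKO.

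Cyp2c54 was at 10.8 CPM in WT, 22.2 in YAPKO, 208 in TAZKO and 35.3 in DKO, lowest in WT. Its ratio was 1.04 (0.79 to 1.29) in YAPKO, 4.27 (4.06 to 4.48) in TAZKO and 1.71 (1.49 to 1.93) in DKO. The YAPKO call ended when scaled without marker, Mup and mitochondrial genes (0.94), when centred (0.64) and without an upper limit (0.13), and turned to -2.15 in cells with a pericentral share under 0.1. In pericentral cells the values were 0.35 in YAPKO, 0.97 in TAZKO and -0.030 in DKO, none past 2-fold. With 10% of marker UMIs the ratio was 6.42 in TAZKO and 6.28 in DKO, and centred it was 3.61 in TAZKO. Of the windows of 90 bases in the last 500 bases of Cyp2c54, 8.27% are shared with Cyp2c37.

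Cyp2c37 was at 2.09 CPM in WT, 3.31 in YAPKO, 30.7 in TAZKO and 3.62 in DKO, high in TAZKO. The log2 ratio was 3.88 (3.41 to 4.38) in TAZKO, and 5.83 with limits as UMIs, 5.13 as a mean over cells, 3.14 in cells with at least 5000 UMIs and 3.23 centred. The call ended in pericentral cells (0.92). In YAPKO it was 0.67, not called, but 3.28 with limits as UMIs, 2.29 as a mean over cells and -0.028 without an upper limit. In DKO it was 0.80, and 2.08 with limits as UMIs and 1.00 as a mean over cells.

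Cyp2c38 was scarce, with 3 UMIs in WT, 31 in YAPKO, 17 in TAZKO and 53 in DKO. With 3 UMIs in WT, its log2 ratio was 3.55 (1.87 to 5.91) in YAPKO, 2.92 (1.13 to 5.33) in TAZKO and 3.43 (1.80 to 5.75) in DKO, so it was higher in all 3. As a mean over cells it was 2.96 in YAPKO, 2.04 in TAZKO and 2.37 in DKO. Without an upper limit it was 2.43 in YAPKO and 2.76 in DKO, and centred 2.27 in TAZKO.

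Cyp2c55, with 16 UMIs in WT, 57 in YAPKO, 70 in TAZKO and 126 in DKO, was also higher in all 3, with log2 ratios of 2.01 (1.19 to 2.91) in YAPKO, 2.55 (1.75 to 3.43) in TAZKO and 2.26 (1.51 to 3.11) in DKO. As a mean over cells these became 4.60, 5.18 and 4.43. The YAPKO value was 1.43 without an upper limit, and that of TAZKO 3.35 with limits as UMIs and 1.89 centred. In pericentral cells it was 0.19 in YAPKO, -1.36 in TAZKO and -0.29 in DKO, so no increase past 2-fold was left.

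Cyp2c23, an epoxygenase of arachidonic acid, was at 89.3 CPM in WT, 94.8 in YAPKO, 227 in TAZKO and 147 in DKO. It was highest in TAZKO, with a log2 ratio of 1.35 (1.26 to 1.43), a call that ended when centred on the median (0.69) and in pericentral cells (0.87) and reached 2.26 with limits as UMIs. In DKO the ratio was 0.72, and 1.34 with 10% of marker UMIs. In YAPKO it was 0.085, turning to -0.31 centred and to -0.015 when scaled without marker, Mup and mitochondrial genes.

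Cyp2c68 was at 10.8 CPM in WT, 10.8 in YAPKO, 67.1 in TAZKO and 21.3 in DKO, high in TAZKO. The ratio was -0.0026 in YAPKO, 2.63 (2.41 to 2.85) in TAZKO, where centring gave 1.98 and pericentral cells 0.30, and 0.97 in DKO, which passed 2-fold with 10% of marker UMIs (1.62) and in cells with at least 5000 UMIs (1.07). Its near copy Cyp2c40 had 0 UMIs in WT, 1 in YAPKO, 12 in TAZKO and 2 in DKO, most in TAZKO, and was not compared. These genes share 3′ windows of 90 bases with their paralogs, 49.9% for Cyp2c40, 28.0% for Cyp2c68 and 23.1% for Cyp2c67, so part of their reads cannot be told apart.

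Cyp2c67 was at 10.4 CPM in WT, 14.5 in YAPKO, 149 in TAZKO and 34.9 in DKO, highest in TAZKO and next in DKO. The log2 ratio was 3.83 (3.62 to 4.05) in TAZKO, and 4.74 with 10% of marker UMIs and 3.18 centred. In DKO it was 1.74 (1.53 to 1.97), and 3.09 with 10% of marker UMIs and 1.11 as a mean over cells. Both calls ended in pericentral cells (0.30 in TAZKO and -0.33 in DKO). In YAPKO it was 0.47, turning to -0.26 without an upper limit. The promoter carries the letters CATTCC of TEAD sites, the partners of YAP and TAZ on DNA (RefSeq, GRCm38.p6, chr19:39648993-39649292, reverse strand), and matches are in capitals.
Cyp2c67: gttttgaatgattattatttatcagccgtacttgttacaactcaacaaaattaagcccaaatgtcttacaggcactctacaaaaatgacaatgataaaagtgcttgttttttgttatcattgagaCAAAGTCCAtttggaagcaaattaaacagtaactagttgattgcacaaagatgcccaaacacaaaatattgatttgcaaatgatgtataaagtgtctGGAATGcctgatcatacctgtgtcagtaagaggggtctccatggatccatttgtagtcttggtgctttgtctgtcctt
The capitals mark CAAAGTCCA and, toward the start of the gene, GGAATG, the reverse strand of CATTCC, without overlap. CATTCC is present on either strand in 14.6% of all promoters, so a match in a window of 300 bases is common. Whether TEAD proteins bind here was not tested.

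Cyp2c70 makes the muricholic acids, the bile acids typical of mouse. It was at 349 CPM (340.3 to 357) in WT, 272 (264 to 279.5) in YAPKO, 342 (333 to 352) in TAZKO and 164 (159.7 to 169) in DKO, high in WT and TAZKO and low in DKO. In DKO it fell by 2.12-fold, with a log2 ratio of -1.09 (-1.14 to -1.03) and -1.55 relative to the median. This call ended with 10% of marker UMIs required (-0.54). The ratio was -0.36 in YAPKO and -0.026 in TAZKO. Its promoter (RefSeq, GRCm38.p6, chr19:40187237-40187536, reverse strand) is shown because no other Cyp2c member was called lower, with matches in capitals.
Cyp2c70: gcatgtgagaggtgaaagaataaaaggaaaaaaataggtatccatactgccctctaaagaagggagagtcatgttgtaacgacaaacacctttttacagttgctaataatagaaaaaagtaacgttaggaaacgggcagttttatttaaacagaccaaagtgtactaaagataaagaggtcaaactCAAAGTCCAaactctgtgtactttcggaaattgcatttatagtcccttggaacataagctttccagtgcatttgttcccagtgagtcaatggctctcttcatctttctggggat
The capitals mark CAAAGTCCA. The letters CATTCC and AGTTCA are not in this window on either strand.

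Cyp2a4 and Cyp2a5 are close paralogs of nearly identical sequence, a steroid hydroxylase more abundant in female liver and the coumarin hydroxylase that corresponds to human CYP2A6. Cyp2a4 had 1 UMI in WT, 43 in YAPKO, 3 in TAZKO and 1629 in DKO, so it was found almost only in DKO. With 1 UMI in WT, the log2 ratio was 9.96 (7.48 to 15.26) in DKO, and 8.57 with 10% of marker UMIs and 7.83 with limits as UMIs and at least 1.57 in pericentral cells, where WT had 0 UMIs, set to 3 (lower 95% limit 1.16). In YAPKO it was 5.61 (3.05 to 10.94), from 10 of 1159 cells, or 0.863%. The promoters of both genes (RefSeq, GRCm38.p6, chr7:26306942-26307241, forward strand for Cyp2a4 and chr7:26835089-26835388, forward strand for Cyp2a5) are shown because the pair had similar counts only in DKO, with capitals at the bases where the pair differs.
Cyp2a4: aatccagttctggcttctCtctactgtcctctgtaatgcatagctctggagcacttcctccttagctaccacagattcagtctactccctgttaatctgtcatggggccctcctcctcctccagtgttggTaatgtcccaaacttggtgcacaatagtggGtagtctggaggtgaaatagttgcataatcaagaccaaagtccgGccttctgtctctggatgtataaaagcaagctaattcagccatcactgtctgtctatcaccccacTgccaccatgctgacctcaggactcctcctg
Cyp2a5: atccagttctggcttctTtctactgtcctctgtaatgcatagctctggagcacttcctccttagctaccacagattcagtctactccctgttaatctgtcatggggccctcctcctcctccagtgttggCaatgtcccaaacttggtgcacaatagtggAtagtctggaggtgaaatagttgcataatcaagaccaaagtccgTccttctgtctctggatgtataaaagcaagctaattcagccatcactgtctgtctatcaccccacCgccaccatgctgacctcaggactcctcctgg
Of 299 bases compared, 294 are identical (98.3%) and 5 differ. The letters searched for above and those of STAT5 and BCL6 sites (TTCNNNGAA) are in neither window on either strand. Of the 3′ windows of Cyp2a4, 10.5% are shared with Cyp2a5 or a pseudogene.

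Cyp2a5 was at 2.03 CPM (1.45 to 2.78) in WT, 13.8 (12.1 to 15.7) in YAPKO, 15.0 (13.03 to 17.1) in TAZKO and 59.7 (57.0 to 62.4) in DKO, lowest in WT and highest in DKO. Its log2 ratio came to 2.76 (2.27 to 3.29) in YAPKO, 2.88 (2.38 to 3.41) in TAZKO and 4.88 (4.42 to 5.37) in DKO. Its size depended on the setting, from 1.75 without an upper limit to 3.91 with limits as UMIs in YAPKO (3.72 as a mean over cells). In TAZKO it was 2.23 centred and 1.71 in cells with at least 5000 UMIs, and it turned to -0.59 in pericentral cells. In DKO it was at least 6.35 with 10% of marker UMIs, where WT had 0 (lower 95% limit 6.04), 3.81 with limits as UMIs and 4.23 as a mean over cells. Pericentral cells gave 1.52 in YAPKO and 1.85 in DKO. In TAZKO, Cyp2a5 had 215 UMIs where Cyp2a4 had 3, while in DKO they had 1877 and 1629.

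Cyp2a12, which hydroxylates bile acids and testosterone, was at 222 CPM in WT, 167 in YAPKO, 198 in TAZKO and 149.6 in DKO, lowest in DKO. The log2 ratio was -0.41 in YAPKO, -0.16 in TAZKO and -0.57 in DKO, and -1.03 relative to the median in DKO. Cyp2a22 had 4 UMIs in WT, 3 in YAPKO, 4 in TAZKO and 5 in DKO and was not compared. Summed, the Cyp2a genes had a log2 ratio of -0.29 in YAPKO, -0.069 in TAZKO and 0.22 in DKO, turning to -0.24 centred in DKO.

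Cyp2b10 is the classic target of CAR, induced by barbiturates. It was at 9.65 CPM (8.31 to 11.1) in WT, 23.8 (21.5 to 26.2) in YAPKO, 32.1 (29.2 to 35.1) in TAZKO and 23.7 (22.0 to 25.4) in DKO, lowest in WT. Its log2 ratio came to 1.30 (1.05 to 1.56) in YAPKO, 1.73 (1.48 to 1.99) in TAZKO and 1.29 (1.06 to 1.53) in DKO. The YAPKO call ended with 10% of marker UMIs (0.11), when centred (0.91) and without an upper limit (0.95). The DKO call ended when centred (0.83) and was 2.83 with 10% of marker UMIs. In TAZKO it was 3.003 with limits as UMIs, 2.72 as a mean over cells and 1.08 centred. In pericentral cells, as defined below, all 3 turned negative (-0.13 in YAPKO, -0.72 in TAZKO and -0.019 in DKO).

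Cyp2b9, more abundant in female than in male liver, had 0 UMIs in WT, 5 in YAPKO, 1 in TAZKO and 74 in DKO. It was high only in DKO, at least 15.0-fold with the 0 of WT set to 3 UMIs (lower 95% limit of the log2 ratio 3.58), and the 5 UMIs of YAPKO came from 1 cell. Cyp2g1, best known from the olfactory mucosa, lies next to the Cyp2a genes and had 0 UMIs in WT, 3 in YAPKO, 4 in TAZKO and 28 in DKO, at least 5.69-fold higher in DKO with the same floor (lower 95% limit 2.11).

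The Cyp2d genes held the most UMIs of any group in WT, summed to 1479 CPM in WT, 1375 in YAPKO, 1212 in TAZKO and 869 in DKO. They were lowest in DKO, and the log2 ratio was -0.11 in YAPKO, -0.29 in TAZKO and -0.77 in DKO. Cyp2d9, a testosterone hydroxylase more abundant in male liver, was at 648 CPM (637 to 660.0) in WT, 622 (611 to 634) in YAPKO, 484 (472 to 495) in TAZKO and 338 (331 to 344) in DKO. Its log2 ratio was -0.059 in YAPKO, -0.42 in TAZKO and -0.94 in DKO. In DKO it passed 2-fold when scaled without marker, Mup and mitochondrial genes (-1.09) and when centred (-1.40). In TAZKO it was -1.08 centred, but turned to 0.43 with limits as UMIs and 0.20 as a mean over cells. Of its 3′ windows, 7.30% are shared with paralogs.

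Cyp2d10 was at 389 CPM in WT, 360.0 in YAPKO, 350.4 in TAZKO and 237 in DKO, lowest in DKO, with a log2 ratio of -0.11 in YAPKO, -0.15 in TAZKO and -0.72 in DKO. It passed 2-fold in DKO with limits as UMIs (-1.11), centred (-1.18) and as a mean over cells (-1.06), and in TAZKO it turned to 0.34 and 0.14 with the first and last of these. Cyp2d26 was at 295 CPM in WT, 254 in YAPKO, 248 in TAZKO and 194 in DKO, also lowest in DKO, and its ratio was -0.22 in YAPKO, -0.25 in TAZKO and -0.61 in DKO. The DKO value was -1.06 with limits as UMIs and -1.07 centred.

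Cyp2d40 was at 88.6 CPM in WT, 62.6 in YAPKO, 44.7 in TAZKO and 30.0 in DKO, high in WT and low in DKO. It fell by 2.95-fold in DKO, with a log2 ratio of -1.56 (-1.68 to -1.45). In TAZKO the ratio of -0.99 stayed just within 2-fold and passed it when centred (-1.64) and when scaled without marker, Mup and mitochondrial genes (-1.14), and in YAPKO it was -0.50. Cyp2d11 had only 15 UMIs in WT, 9 in YAPKO, 5 in TAZKO and 11 in DKO, and its log2 ratios of -1.17 (-2.98 to 0.36) in TAZKO and -1.16 (-2.43 to 0.059) in DKO, called lower, have intervals that include 0. Cyp2d12 went the other way. It had 18 UMIs in WT, 11 in YAPKO, 17 in TAZKO and 203 in DKO, high only in DKO, where the log2 ratio was 2.78 (2.09 to 3.57) and 4.35 with limits as UMIs. In YAPKO its ratio was -0.53, and in TAZKO it was 0.33, turning to -0.32 centred. Cyp2d22, the member nearest to human CYP2D6 in its reported drug oxidation, was at 55.5 CPM in WT, 74.6 in YAPKO, 82.9 in TAZKO and 64.4 in DKO, similar in all libraries. Its ratio was 0.43 in YAPKO, 0.58 in TAZKO and 0.22 in DKO, and centred it turned negative in TAZKO (-0.071) and DKO (-0.25).

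Of the remaining members none was called in any library. Cyp2j5, an epoxygenase of liver and kidney, was at 268 CPM in WT, 267 in YAPKO, 306 in TAZKO and 217 in DKO, with log2 ratios of -0.0052 in YAPKO, 0.19 in TAZKO and -0.31 in DKO, and it turned to -0.46 centred in TAZKO. Cyp2j6, made in many tissues, was at 35.4 CPM in WT, 55.0 in YAPKO, 48.9 in TAZKO and 50.3 in DKO, lowest in WT, and its ratio was 0.64 in YAPKO, 0.47 in TAZKO and 0.51 in DKO, turning to -0.19 centred in TAZKO. Cyp2j9 had 29 UMIs in WT, 39 in YAPKO, 41 in TAZKO and 43 in DKO, and 0.61 in YAPKO, 0.92 in TAZKO and -0.15 in DKO as log2 ratios. Summed, the Cyp2j genes gave 0.089 in YAPKO, 0.23 in TAZKO and -0.18 in DKO, turning to -0.31 in YAPKO and -0.42 in TAZKO when centred, and to -0.011 in YAPKO when scaled without marker, Mup and mitochondrial genes.

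Cyp2u1, a hydroxylase of long fatty acids, was at 71.8 CPM in WT, 87.3 in YAPKO, 102 in TAZKO and 91.8 in DKO, lowest in WT. The ratio was 0.28 in YAPKO, 0.50 in TAZKO and 0.35 in DKO, and centred it turned negative in all 3 (-0.11, -0.15 and -0.11). Cyp2r1, which hydroxylates vitamin D, was at 8.03 CPM in WT, 8.46 in YAPKO, 7.58 in TAZKO and 9.19 in DKO, with a ratio of 0.075 in YAPKO, -0.082 in TAZKO and 0.19 in DKO that turned negative in YAPKO (-0.32 centred and -0.025 when scaled without marker, Mup and mitochondrial genes) and in DKO (-0.27 centred). Cyp2s1, an enzyme of epithelia outside the liver, had 1 UMI in DKO and 0 in the hepatocytes of the other libraries.

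Position along the lobule was read from 2 lists without members, the pericentral and the periportal hepatocyte genes, each with 15 genes. The pericentral share of a cell is the part of its UMIs in both lists that falls on the pericentral list. Its median was 0.0504 in WT, 0.0556 in YAPKO, 0.273 in TAZKO and 0.0923 in DKO, so TAZKO hepatocytes were shifted toward the pericentral side. The size of this shift depended on the setting. In cells with at least 5000 UMIs the median was 0.0381 in WT, 0.0505 in YAPKO, 0.153 in TAZKO and 0.075 in DKO. With 10% of marker UMIs it was 0.0368 in WT, 0.0477 in YAPKO, 0.0698 in TAZKO and 0.0536 in DKO. With limits read as UMIs it was 0 in WT and 0.286 in TAZKO. Cells with a share of at least 0.4 numbered 36 in WT (1.60%), 122 in YAPKO (10.5%), 436 in TAZKO (14.01%) and 143 in DKO (4.89%). A cell held a median of 1 pericentral UMI in WT, 6 in YAPKO, 7 in TAZKO and 7 in DKO, beside 16, 55, 18 and 61 periportal UMIs. Single cells of WT, and less so those of TAZKO, are thus placed coarsely. Whether the shift is one of cell capture or of expression was not tested.

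When the hepatocytes of each library were split into 3 equal bins by this share, 9 of 24 members compared were at least 2-fold higher in the pericentral than in the periportal bin in WT, against 6% of all genes compared. In YAPKO these were 13 of 27 members against 4.11%, in TAZKO 6 of 26 against 5.87%, and in DKO 10 of 30 against 4.48%. At least 2-fold higher in the periportal bin were 0 members in WT, YAPKO and DKO and 1 in TAZKO, against 1.2% of all genes in WT, 1.89% in YAPKO, 2.4% in TAZKO and 2.3% in DKO. Cells with the same share were placed in the order of their barcodes. In WT the lower quartile of the share was 0, so its lower bins may be split partly by that order.

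Cyp2e1 and Cyp2f2 are in the lists that set the bins, so their gradients follow from the choice of bins and are not a result. Cyp2c29 was at 35.3 CPM in the periportal, 13.3 in the middle and 1034 in the pericentral bin of WT, and at 198 CPM in the periportal, 1074 in the middle and 1943 in the pericentral bin of TAZKO. Its log2 ratio of the pericentral to the periportal bin was 4.87 in WT, 9.50 in YAPKO, 3.30 in TAZKO and 6.88 in DKO, so the gradient was shallowest in TAZKO. For Cyp2c50 the ratio was 4.47 in WT, 8.87 in YAPKO, 2.30 in TAZKO and 4.28 in DKO, and for Cyp2c54 3.19 in WT, 9.09 in YAPKO, 2.32 in TAZKO and 3.54 in DKO. Cyp2c67 had 3.58 in WT, 6.07 in YAPKO, 0.72 in TAZKO and 1.94 in DKO, less steep in both libraries with the Taz deletion. Cyp2c37 had 4.63 in WT and 3.33 in TAZKO, and in YAPKO and DKO its periportal bin held 0 UMIs, so the values there are bounds, 4.71 and 5.82 with a floor of 3 UMIs, with lower 95% limits of 4.36 and 5.50. These gradients were not corrected for free hepatocyte RNA. In cells with B cell markers, the median percent of UMIs from the hepatocyte markers was 0.548 in WT, 0.102 in YAPKO, 0.511 in TAZKO and 0.146 in DKO. The part of free RNA in the slopes was not tested.

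Cyp3a11 was pericentral in WT, with a log2 ratio of 3.21, and in YAPKO (2.37) and TAZKO (2.91), but in DKO the ratio was 0.78. It was at 826 CPM in the periportal, 1106 in the middle and 1413 in the pericentral bin of DKO, high in every bin, and at 16.0 CPM in the periportal, 5.61 in the middle and 149 in the pericentral bin of WT. Cyp2a5 was pericentral in all libraries (4.59 in WT, 8.43 in YAPKO, 2.94 in TAZKO and 3.74 in DKO). Cyp2a4 was not in DKO, at -0.51. The YAPKO value of Cyp2a4 was 5.32, and it turned to -2.45 with bins from Cyp2e1 and Cyp2f2 alone. Cyp2b10 was moderately pericentral (1.91 in WT, 1.93 in YAPKO, 0.90 in TAZKO and 1.35 in DKO), and Cyp2d9 was nearly even (-0.35 in WT, -0.33 in YAPKO, 0.46 in TAZKO and 0.0072 in DKO).

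**Figure D3:**
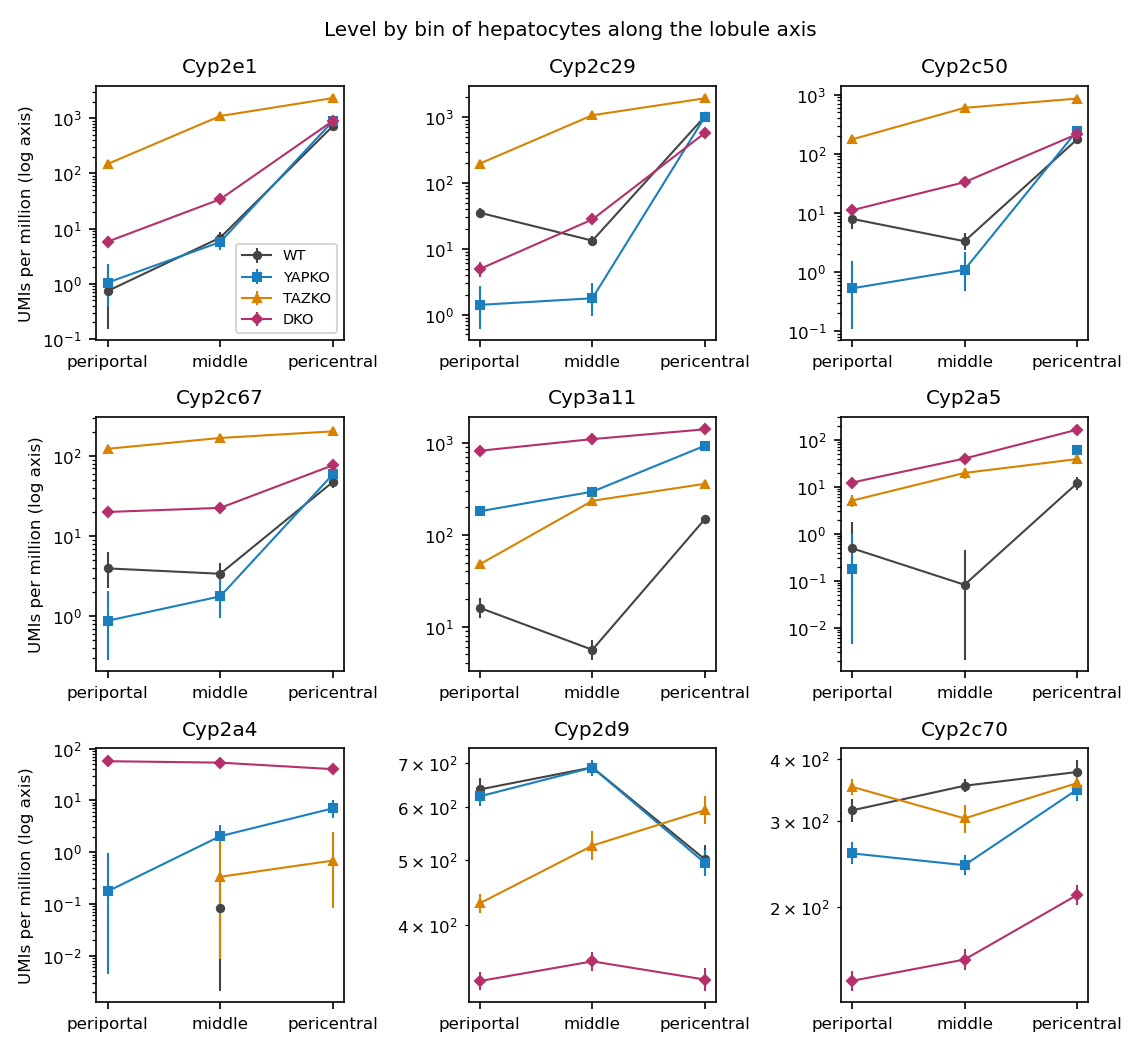
Level in CPM of Cyp2e1 and 8 members in the periportal, middle and pericentral bin of hepatocytes, with 1 line per library and bars for exact 95% Poisson intervals, on a log axis. Cyp2e1 is in the list that sets the bins, so its slope follows from them. Bins without a UMI of the gene are not drawn.

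Because the libraries differ along this axis, members were also compared between cells with the same range of pericentral share, ranges chosen after the data were seen. Among cells with a share of at least 0.4, 3 of 24 members were higher and 0 lower in YAPKO, against 10.2% and 1.57% of all genes. In TAZKO 0 of 23 were higher and 2 lower, against 15.5% and 2.31%, and in DKO 4 of 25 were higher and 4 lower, against 13.5% and 3.92%. With shares from Cyp2e1 and Cyp2f2 alone these were 3 and 0 of 25 in YAPKO, against 12.8% and 1.12% of all genes, 4 and 1 of 25 in TAZKO, against 28.3% and 1.38%, and 6 and 3 of 29 in DKO, against 20% and 2.17%. In the pericentral bin of equal size, 5 of 27 members were higher than in WT and 0 lower in YAPKO. There 8 of 24 were higher and 0 lower in TAZKO, and 6 of 29 higher and 1 lower in DKO. These bin counts have no share of all genes beside them.

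With a share between 0.1 and 0.4, 3 of 22 members were higher and 0 lower in YAPKO, against 13.7% and 2.45% of all genes, 11 of 26 and 0 in TAZKO, against 34% and 1.69%, and 8 of 28 and 1 in DKO, against 18.6% and 3.51%. With a share under 0.1, 2 of 25 members were higher and 4 lower in YAPKO, against 8.53% and 1.52% of all genes, 7 of 23 and 1 in TAZKO, against 18.4% and 3.97%, and 11 of 29 and 4 in DKO, against 16.1% and 2.72%.

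A range does not give the same position in each library. Within that of at least 0.4, which holds only 36 WT cells, the median share was 0.535 in WT, 0.798 in YAPKO, 0.444 in TAZKO and 0.5 in DKO. The level of Cyp2e1 follows from the choice of cells and cannot check the range. Cyp2c29 was at 4608 CPM in WT, 2560.3 in YAPKO, 2403 in TAZKO and 1681 in DKO, highest in WT, and its TAZKO ratio of 2.04 over all hepatocytes became -0.94, or -0.73 with shares from Cyp2e1 and Cyp2f2 alone. In the pericentral bin of equal size, Cyp2c29 was higher in TAZKO than in WT. Cyp2c50 was at 763 CPM in WT, 671 in YAPKO, 1061 in TAZKO and 578 in DKO and Cyp2c54 at 257 CPM in WT, 327 in YAPKO, 504 in TAZKO and 252 in DKO, both highest in TAZKO.

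Cyp3a11 was at 735 CPM in WT, 1682 in YAPKO, 488 in TAZKO and 2029 in DKO in this range, with log2 ratios of 1.20 in YAPKO, -0.59 in TAZKO and 1.47 in DKO. With shares from Cyp2e1 and Cyp2f2 alone, which place 221 WT cells in the range, it was at 354 CPM in WT, 1494 in YAPKO, 308 in TAZKO and 1729.7 in DKO, with ratios of 2.08 in YAPKO, -0.20 in TAZKO and 2.29 in DKO. Cyp2b10 was below WT in the range, at -0.13 in YAPKO, -0.72 in TAZKO and -0.019 in DKO, but with Cyp2e1 and Cyp2f2 alone it turned to 0.84 in YAPKO and 0.13 in DKO.

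In cells with a share under 0.1, Cyp3a11 was at 8.71 CPM in WT, 267 in YAPKO, 14.1 in TAZKO and 953 in DKO, and its log2 ratio was 4.94 in YAPKO, 0.70 in TAZKO and 6.77 in DKO. With Cyp2e1 and Cyp2f2 alone the TAZKO value passed 2-fold, at 1.19. Cyp2c67 was at 3.63 CPM in WT, 1.46 in YAPKO, 112 in TAZKO and 19.5 in DKO there, so it remained high in TAZKO and DKO. In YAPKO and DKO, Cyp3a11 was thus at least 2-fold above WT in the lowest and the highest range, and the size of the difference in the highest depends on how the share is computed.

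**Figure D4:**
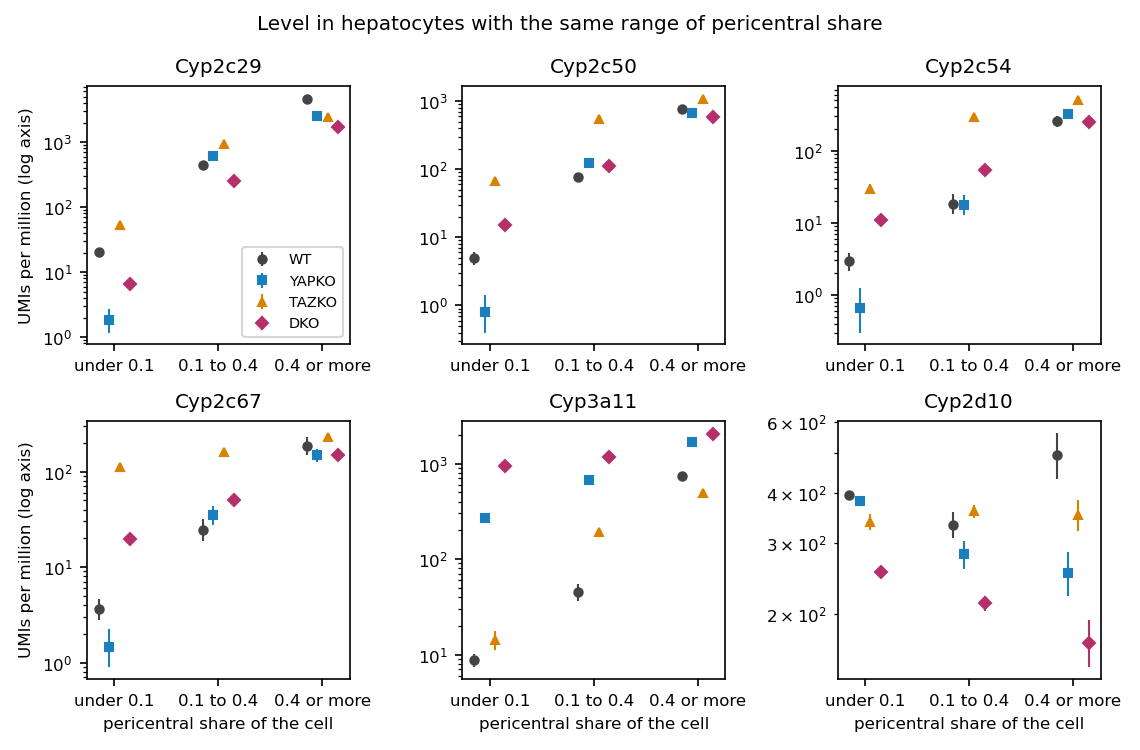
Level in CPM of 6 members in hepatocytes with a pericentral share under 0.1, from 0.1 to 0.4, and of at least 0.4, with 1 color per library and bars for exact 95% Poisson intervals, on a log axis.

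The share of cells with a UMI depends on depth and on free RNA in the droplets, so it is given with all UMIs, after thinning each cell to 1000 UMIs, and beside B cells, which are not known to make these enzymes. Cyp3a11 was found in 6.57% in WT, 38.8% in YAPKO, 37.9% in TAZKO and 71.9% in DKO of hepatocytes, and after thinning in 2.80% in WT, 17.5% in YAPKO, 22.4% in TAZKO and 37.1% in DKO. In B cells it was found in 0.946% in WT, 2.51% in YAPKO, 8.63% in TAZKO and 9.85% in DKO, and after thinning in 0.473% in WT, 0.685% in YAPKO, 4.15% in TAZKO and 4.32% in DKO. DKO was highest and WT lowest in hepatocytes. Cyp2c29 was found in 20.5% in WT, 12.7% in YAPKO, 78.0% in TAZKO and 17.6% in DKO of hepatocytes and 5.20% in WT, 1.14% in YAPKO, 22.8% in TAZKO and 2.46% in DKO of B cells, and after thinning in 11.9% in WT, 6.92% in YAPKO, 59.6% in TAZKO and 7.73% in DKO and 0.946% in WT, 0.228% in YAPKO, 9.57% in TAZKO and 1.23% in DKO. TAZKO was high in both kinds of cell. Cyp2c50 was found in 6.03% in WT, 10.8% in YAPKO, 65.0% in TAZKO and 15.5% in DKO of hepatocytes and 1.18% in WT, 1.14% in YAPKO, 17.6% in TAZKO and 1.54% in DKO of B cells, after thinning in 3.02% in WT, 5.62% in YAPKO, 43.0% in TAZKO and 4.94% in DKO and 0.473% in WT, 0.457% in YAPKO, 6.50% in TAZKO and 0% in DKO, again highest in TAZKO. Cyp2a4 was found in 15.4% of DKO hepatocytes (2.97% after thinning) and in 0 B cells, thinned or not. B cells numbered 423 in WT, 438 in YAPKO, 556 in TAZKO and 325 in DKO, with median UMIs of 2928, 2879.5, 2806 and 2162.

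Hepatocyte RNA outside hepatocytes was read in cells with B or T markers, per 1000 UMIs of Alb in the same cells. There Cyp3a11 was at 0.750 in WT, 16.4 in YAPKO, 8.49 in TAZKO and 30.0 in DKO UMIs per 1000 Alb UMIs, beside 0.757 in WT, 10.0 in YAPKO, 3.21 in TAZKO and 31.5 in DKO in hepatocytes. The log2 ratio to WT on this scale was 4.45 in YAPKO, 3.501 in TAZKO and 5.32 in DKO, with 4 UMIs in WT, beside 3.73 in YAPKO, 2.09 in TAZKO and 5.38 in DKO in hepatocytes. The order of libraries was the same in both. Cyp2c29 was at 7.69 in WT, 6.99 in YAPKO, 27.8 in TAZKO and 6.62 in DKO per 1000 Alb UMIs, beside 4.45 in WT, 5.80 in YAPKO, 15.7 in TAZKO and 4.57 in DKO in hepatocytes, high only in TAZKO in both. Cyp2c50 was at 1.501 in WT, 5.35 in YAPKO, 18.7 in TAZKO and 4.84 in DKO, beside 0.780 in WT, 1.41 in YAPKO, 8.59 in TAZKO and 2.04 in DKO, and the ratio in the B and T cells was 1.83 in YAPKO, 3.64 in TAZKO and 1.69 in DKO. Cyp2c70 had a ratio of -0.23 in YAPKO, 0.094 in TAZKO and -0.83 in DKO there, lowest in DKO as in hepatocytes.

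Most members were found outside hepatocytes only near the level of B cells. Above the B cell level was Cyp2d22, at 87.0 CPM in WT, 69.0 in YAPKO, 83.4 in TAZKO and 43.1 in DKO in cells with EC markers and 52.4 CPM in WT, 45.2 in YAPKO, 48.9 in TAZKO and 46.7 in DKO in those with HSC markers, beside 1.28 CPM in WT, 1.17 in YAPKO, 6.84 in TAZKO and 2.12 in DKO in B cells. It was lower in ECs of DKO than in those of the other libraries. Cyp2j6 was at 29.1 CPM in WT, 27.4 in YAPKO, 29.7 in TAZKO and 22.3 in DKO in ECs, beside 1.92 CPM in WT, 0 in YAPKO, 8.95 in TAZKO and 4.24 in DKO in B cells, similar in all 4. In BECs, of which there were 39 in WT, 34 in YAPKO, 22 in TAZKO and 10 in DKO, Cyp2j6 reached 63.7 CPM in WT, 119 in YAPKO and 75.4 in TAZKO, and Cyp2d22 117, 107 and 95.5. Cyp2d22 was also above B cells in KCs of WT (log2 ratio 3.05), and in cells with neutrophil markers of WT (4.26) and YAPKO (4.18), and Cyp2j6 in HSCs of WT (3.58). In BECs of YAPKO, Cyp2j5 and Cyp2d10 were also above the B cell level. Cyp2s1 was found at 5 UMIs in HSCs of WT, 0 in YAPKO, 5 in TAZKO and 2 in DKO, and in BECs at 2, 7, 2 and 0. In WT cells with neutrophil markers, 757 of 923 member UMIs came from 2 of 324 cells, which also held 470 of 474 Cyp2e1 UMIs. Besides Cyp2d22, members above B cells there were Cyp3a11 (5.97), Cyp2c50 (4.80), Cyp2c67 (4.73), Cyp2c54 (4.41), Cyp2a5 (at least 4.23 against 0, with a floor of 3 UMIs and a lower limit of 3.86), Cyp2c29 (3.76) and Cyp2c70 (1.84).

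**Figure D5:**
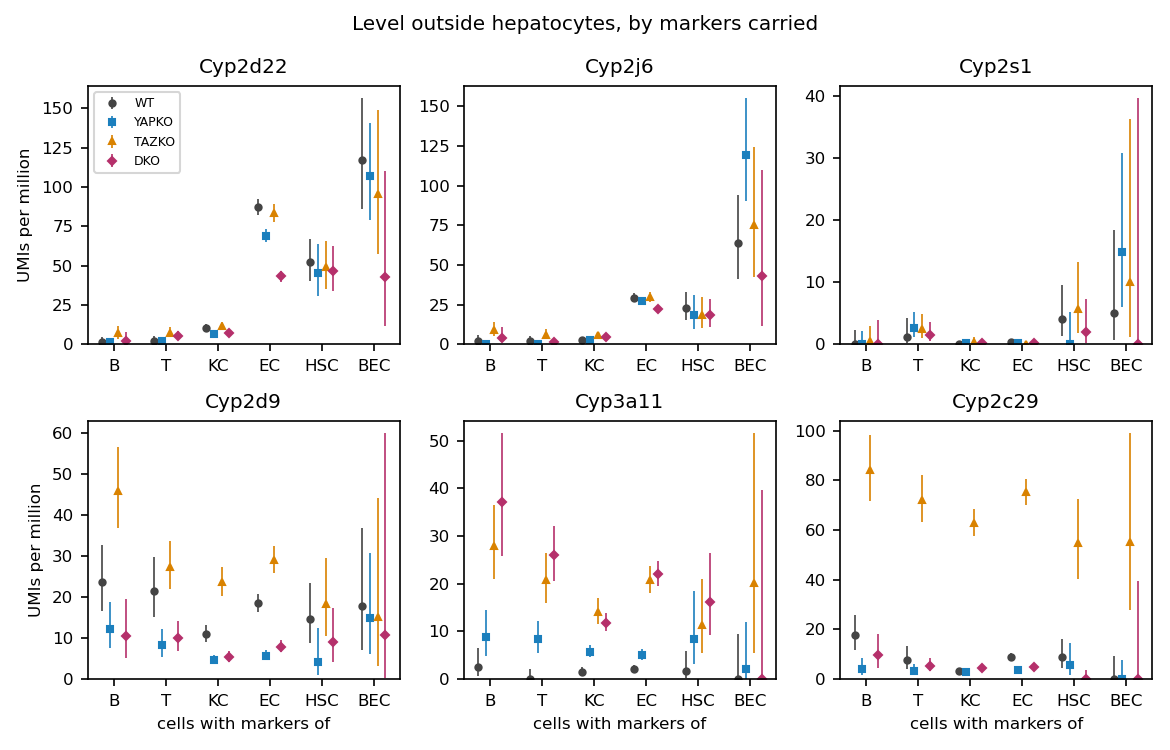
Level in CPM of 6 members in cells with markers of B cells, T cells, KCs, ECs, HSCs and BECs, with 1 color per library and bars for exact 95% Poisson intervals. B and T cells show the background level.

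Lists of genes tied to the work and control of these enzymes were read in the same hepatocytes, and the genes named from them were chosen after their values were seen. Each count is to be read beside the share of all genes, of which 8.53% in YAPKO, 27.4% in TAZKO and 16.1% in DKO were higher, and 1.52%, 1.92% and 2.73% lower. Of 14 genes for electron donors and heme synthesis, those higher and lower were 1 and 0 of 14 compared in YAPKO, 1 and 0 of 14 in TAZKO and 3 and 0 of 14 in DKO. Their median log2 ratios, 0.35 in YAPKO, 0.54 in TAZKO and 0.31 in DKO, were below the medians of all genes. Por, on which all the members depend for electrons, was at 22.7 CPM in WT, 53.3 in YAPKO, 42.0 in TAZKO and 91.3 in DKO, with ratios of 1.23 in YAPKO, 0.88 in TAZKO and 2.01 in DKO, highest in DKO, and 0.83 centred in YAPKO, which ends that call, and 0.23 in TAZKO. Of 20 nuclear receptors and other regulators, those higher and lower were 5 and 1 of 20 compared in YAPKO, 8 and 0 of 20 in TAZKO and 6 and 1 of 20 in DKO, with medians of 0.53 in YAPKO, 0.93 in TAZKO and 0.52 in DKO, above those of all genes. Nr1i3 (CAR) was at 5.11 CPM in WT, 7.16 in YAPKO, 51.6 in TAZKO and 20.95 in DKO, high in TAZKO and DKO, and its ratio was 0.49 in YAPKO, 3.34 in TAZKO and 2.04 in DKO. Nr1i2 (PXR) was at 17.9 CPM in WT, 31.6 in YAPKO, 24.4 in TAZKO and 36.7 in DKO, with ratios of 0.82 in YAPKO, 0.45 in TAZKO and 1.04 in DKO, and centred -0.21 in TAZKO and 0.57 in DKO, which ends the call there. Bcl6, a repressor of female-type genes, had 1.35 in YAPKO, 2.95 in TAZKO and 2.10 in DKO, no longer past 2-fold in YAPKO when centred (0.96). Ahr had 2.44 in YAPKO, 2.90 in TAZKO and 2.47 in DKO, and Onecut1 -1.62 in YAPKO, -0.66 in TAZKO and -1.06 in DKO, past 2-fold lower in TAZKO too when centred (-1.31).

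Targets of CAR and PXR outside the P450 families, 31 genes of which Por and Alas1 are also among the electron donor and heme genes, were read as well, and those higher and lower were 8 and 0 of 28 compared in YAPKO, 9 and 0 of 29 in TAZKO and 12 and 0 of 29 in DKO, with medians of 0.55 in YAPKO, 0.70 in TAZKO and 0.53 in DKO, above those of all genes. The 9 of 29 in TAZKO are near the share of all genes there. Gstm3 had log2 ratios of 3.13 in YAPKO, 0.55 in TAZKO and 4.68 in DKO (-0.10 centred in TAZKO) and Abcb1a of 2.14 in YAPKO, 1.22 in TAZKO and 4.21 in DKO, so both were highest in DKO, as Cyp3a11 was. Gsta1 gave 2.35 in YAPKO, -0.11 in TAZKO and 4.27 in DKO, and Slco1a4 1.24 in YAPKO, 2.13 in TAZKO and 3.20 in DKO. Centring ended the calls of Abcb1a in TAZKO (0.57) and Slco1a4 in YAPKO (0.85).

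Of 21 other P450 genes, Cyp2e1 and Cyp2f2 among them, those higher and lower were 3 and 1 of 20 compared in YAPKO, 7 and 0 of 20 in TAZKO and 6 and 3 of 20 in DKO. The medians were 0.092 in YAPKO, 0.73 in TAZKO and -0.16 in DKO, and those of YAPKO and DKO are below the medians of all genes. Cyp2e1 was at 117 CPM in WT, 203 in YAPKO, 781 in TAZKO and 236 in DKO, with ratios of 0.79 in YAPKO, 2.74 in TAZKO and 1.01 in DKO (0.55 centred in DKO, which ends the call), and Cyp2f2 at 1314 CPM in WT, 1336 in YAPKO, 1513 in TAZKO and 591 in DKO, with 0.023 in YAPKO, 0.20 in TAZKO and -1.15 in DKO, and centred -0.37 in YAPKO and -0.45 in TAZKO. Cyp4a14 had -1.34 in YAPKO, 4.18 in TAZKO and 5.42 in DKO and Cyp7a1 1.12 in YAPKO, 4.14 in TAZKO and 2.68 in DKO, within 2-fold in YAPKO when centred (0.73). In DKO, Cyp8b1 had -2.34 and Cyp7b1 -2.53.

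Of the pericentral list, those higher and lower were 10 and 0 of 13 compared in YAPKO, 11 and 0 of 14 in TAZKO and 10 and 0 of 13 in DKO, with medians of 1.40 in YAPKO, 2.36 in TAZKO and 1.48 in DKO, and it summed to 678 CPM in WT, 1439.9 in YAPKO, 2708 in TAZKO and 1610.4 in DKO. Of the periportal list, those higher and lower were 0 and 0 of 15 compared in YAPKO, 3 and 0 of 15 in TAZKO and 2 and 2 of 15 in DKO, with medians of 0.12 in YAPKO, 0.20 in TAZKO and 0.25 in DKO, all below those of all genes, and it summed to 9217 CPM in WT, 11523 in YAPKO, 11220.5 in TAZKO and 11472 in DKO. The pericentral list was highest in TAZKO, as were Cyp2c29, Cyp2c50 and Cyp2c54.

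Inflammation lowers many P450 transcripts. Of 20 acute phase genes, those higher and lower were 2 and 0 of 20 compared in YAPKO, 1 and 8 of 20 in TAZKO and 1 and 5 of 20 in DKO, with medians of 0.16 in YAPKO, -0.74 in TAZKO and -0.53 in DKO, all below those of all genes. Saa1 had -0.14 in YAPKO, -4.11 in TAZKO and -2.57 in DKO and Lcn2 3.12 in YAPKO, -1.80 in TAZKO and 2.26 in DKO.

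Several members differ between the sexes, and the sex of the mice is not stated. Of 21 female-biased genes, which include members, only 5 in YAPKO, 3 in TAZKO and 7 in DKO reached the UMIs needed to be compared. Many had few or no UMIs in WT and pass only where a knock-out is high, so their counts of calls and medians say little and are not given. Summed, the list was at 39.9 CPM in WT, 55.3 in YAPKO, 176 in TAZKO and 141 in DKO, highest in TAZKO, where Cyp4a10 led it, while Cyp2a4 led it in DKO. Of 19 male-biased genes, those higher and lower were 1 and 4 of 19 compared in YAPKO, 2 and 4 of 19 in TAZKO and 0 and 7 of 19 in DKO, with medians of -0.16 in YAPKO, 0.070 in TAZKO and -0.72 in DKO, all below those of all genes. The median was lowest in DKO, but the sum, 99161 CPM in WT, 56111 in YAPKO, 21213 in TAZKO and 53069 in DKO, was lowest in TAZKO. Mup20 led that sum except in TAZKO, where Serpina1e did. Female-biased members Cyp2a4 and Cyp2b9 were high in DKO, where Cyp2d9, a male-biased member, was lowest. The other male-biased member, Cyp2u1, was not lower in DKO, at 91.8 CPM beside 71.8 in WT (log2 ratio 0.35, and -0.11 centred). Of the other female-biased members, Cyp2b10 was highest in TAZKO, and Cyp2c40 had most of its few UMIs there. Of 5 sex chromosome genes, 4 were compared, and those higher and lower were 0 and 0 of 4 compared in YAPKO, 3 and 0 of 4 in TAZKO and 0 and 0 of 4 in DKO, with medians of 0.43 in YAPKO, 1.22 in TAZKO and 0.52 in DKO. The 3 calls of TAZKO end when centred (Ddx3y 0.51, Kdm5d 0.62 and Uty 0.62). The Y-linked gene Ddx3y was at 49.6 CPM in WT, 70.0 in YAPKO, 111 in TAZKO and 76.8 in DKO, present in all libraries, and Xist had 0 UMIs in WT, 3 in YAPKO, 2 in TAZKO and 5 in DKO.

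Most members lie near paralogs. The 7 Cyp2d genes span chr15:82370527-82794294. Of the Cyp2c genes, 10 lie from Cyp2c55 (chr19:39007019-39042693, forward strand) to Cyp2c70 (chr19:40153353-40187333, reverse strand), and Cyp2c23 stands apart (chr19:44005022-44029208, reverse strand). Cyp3a11, Cyp3a25 and Cyp3a59 lie together, and Cyp3a13 apart from them (chr5:137892932-137921619, reverse strand). The 4 Cyp2a genes lie within chr7:26307169-27037375, with Cyp2g1 between them. Cyp2u1 (chr3:131288441-131303227, reverse strand) and Cyp2r1 (chr7:114549682-114562972, reverse strand) stand alone. Not all neighbors moved together. Among the Cyp2c genes in TAZKO, Cyp2c54 was at 4.27 and Cyp2c70 at -0.026, and among the Cyp2d genes in DKO, Cyp2d12 was at 2.78 and Cyp2d40 at -1.56. Of the 35 members, 14 share at least 1 window of 90 bases in the last 500 bases with another gene, and 21 share none, among them Cyp3a11, Cyp2c29 and Cyp2c70.

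Promoter sequences were at hand for 29 members, not for Cyp2c54, Cyp2g1, Cyp2d22, Cyp2d12, Cyp2c23 and Cyp2u1. The letters TTCNNNGAA of STAT5 and BCL6 sites were in 0 of the 29, against 8.37% of 27025 promoters. AGTTCA was in those of Cyp2c40, Cyp2c50 and Cyp3a11, CATTCC in those of Cyp2b10, Cyp2b9, Cyp2c38, Cyp2c67, Cyp2d40 and Cyp2j6, and CAAAGTCCA in those of Cyp2c40, Cyp2c67, Cyp2c68, Cyp2c70 and Cyp3a11. Absence means only that the letters are not in this window.

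The limits are those of 1 mouse and 1 library per genotype. A difference between libraries may come from genotype, age, the mouse, the isolation or the run, and these cannot be told apart. Depth per cell differs between libraries, and intervals cover counting only. Transcripts do not measure enzyme activity.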

How the data were processed

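The authors aligned reads to mm10 with Cell Ranger (6.0.1 in the text of the study, 4.0.0 in the matrix headers) and deposited a matrix of UMI counts per library, used here without normalization. Cells were kept with 500 to 6000 genes and at most 10% mitochondrial UMIs. Doublets were not removed by a caller, and an alternative left out hepatocytes with at least 1% of UMIs from markers of other cell types. UMIs were summed over cells and scaled to CPM. Intervals at 95% are exact: Poisson for levels, conditional binomial for ratios and Clopper-Pearson for shares. A count of 0 in WT was given a floor of 3 UMIs. Genes were compared with at least 20 UMIs in the pair.

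The members and lists were chosen with earlier results of these data known. The lists are female-biased and male-biased liver genes, sex chromosome genes, electron donors and heme synthesis, regulators, other P450 genes, CAR and PXR targets, acute phase genes, pericentral genes and periportal genes, and the markers of cell types. Named members are the 10 with the most hepatocyte UMIs and those with the largest ratios in each comparison, 21 in all.

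Alternatives were a marker limit of 10%, limits read as UMIs, mitochondrial UMIs up to 20%, scaling without marker, Mup and mitochondrial genes, centring on the median ratio, cells with other markers left out, a mean over cells, at least 100 UMIs, folds of 1.5 and 3, and bins from Cyp2e1 and Cyp2f2 alone. Cells with at least 5000 UMIs, no upper limit on genes and the ranges of pericentral share were added after the data were seen. Coordinates are from GENCODE release 21, which lists 55141 of the genes, and promoters from RefSeq (GRCm38.p6). Python 3.11.15 was used with pandas 2.3.3, numpy 2.4.6, matplotlib 3.10.9 and scipy 1.17.1.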

Additional observations from a re-analysis of the deposited data

Results flagged for a closer look

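Some values were picked out because they come from data outside the rules. Symbols outside the pattern of the members include pseudogenes. In TAZKO hepatocytes, Cyp2d37-ps rose from 10.4 to 28.6 CPM, a log2 ratio of 1.46, which is 0.80 centred on the median of all genes and so within 2-fold. Cyp2c53-ps rose from 3 to 36 UMIs, a log2 ratio of 4.001 (2.34 to 6.34), or 3.35 centred. Cyp2d41-ps was lower, with 19 UMIs in WT, 5 in TAZKO and 7 in DKO and log2 ratios of -1.51 (-3.29 to -0.040) in TAZKO and -2.15 (-3.65 to -0.84) in DKO.

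Barcodes with over 6000 genes that pass the other limits for hepatocytes numbered 81 in WT, 132 in YAPKO, 12 in TAZKO and 43 in DKO. In them Cyp3a11 was at 93.3 CPM in WT, 397 in YAPKO, 336 in TAZKO and 956 in DKO. Its log2 ratio there was 2.09 in YAPKO, 1.85 in TAZKO and 3.36 in DKO, and centred on the median of all genes in the same barcodes 1.85, 1.59 and 3.05.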

How the results depend on the processing

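The cause was not tested for any shift below. Counts of members called have no share of all genes beside them, except for centring and the ranges of pericentral share, given above. The other counts show only how the calls of members moved. With 10% of marker UMIs, 4 members were higher in YAPKO, 0 lower in TAZKO and 1 lower in DKO, and the members summed to 0.25 in TAZKO and 0.52 in DKO (log2 ratio). Of 30 named ratios past 2-fold in the main setting, only 18 had enough UMIs for a value here, and 16 of these stayed. The counts of ratios that stayed under the settings below are also out of those with a value. With limits read as UMIs the sums were -0.060 in YAPKO, 1.32 in TAZKO and -0.15 in DKO, and 24 of 25 stayed. Scaled without marker, Mup and mitochondrial genes the sums were 0.034, 0.43 and 0.031, 2 members were lower in TAZKO, and 29 of 30 stayed. Centred on the median the sums were -0.26, -0.067 and -0.28, with 3 lower in TAZKO and 7 in DKO, and 25 of 30 stayed.

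As a mean over cells the sums were 0.073 in YAPKO, 1.09 in TAZKO and 0.015 in DKO, 2 members were lower in TAZKO, and all 30 stayed. All stayed with mitochondrial UMIs up to 20% (30 of 30) and with other markers left out (29 of 29). With at least 100 UMIs, 4 were higher in YAPKO and 0 lower in TAZKO. At a fold of 1.5, 11 were higher in YAPKO, 2 lower in TAZKO and 6 lower in DKO, and at a fold of 3, 0 were lower in TAZKO and DKO. With bins from Cyp2e1 and Cyp2f2 alone, 1 gradient past 2-fold turned, that of Cyp2a4 in YAPKO (-2.45). Weaker ones also changed sign, among them Cyp2d10 in WT (0.12) and, in DKO, Cyp3a25 (0.26), Cyp2c23 (0.083) and Cyp2d12 (-0.052). Sizes moved in both directions as well. With these bins the gradient of Cyp2c54 was 4.16 in WT and 6.95 in YAPKO. That of Cyp3a11 was 4.40 in WT, and that of Cyp2a5 was 2.40 in DKO. The periportal bin made this way held no Cyp2e1 UMIs in WT, YAPKO and DKO, and equal shares were again placed in the order of barcodes.

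Added after the data were seen, cells with at least 5000 UMIs gave 0 lower and a sum of 0.37 in TAZKO, and 29 of 29 stayed. Without an upper limit on genes the sums were 0.055 in YAPKO, 0.53 in TAZKO and 0.11 in DKO, and 27 of 30 stayed. With a pericentral share under 0.1, YAPKO had 2 higher, 4 lower, a sum of 0.028 and Cyp2c54 at -2.15, TAZKO had 7 higher and a sum of 0.21, DKO had a sum of 0.14, and 19 of 21 stayed.

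With a share of at least 0.4, 8 of 27 stayed and 11 turned. YAPKO had 3 higher, a sum of -0.32, and Cyp2b10 at -0.13. TAZKO had 0 higher, 2 lower and a sum of -0.34, with Cyp3a11 at -0.59, Cyp2c29 at -0.94, Cyp2a5 at -0.59, Cyp2c55 at -1.36 and Cyp2b10 at -0.72. DKO had 4 higher and a sum of -0.49, with Cyp2c55 at -0.29, Cyp2b10 at -0.019, Cyp2c54 at -0.030, Cyp2c67 at -0.33 and Cyp2c50 at -0.40.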
